A study of Homo sapiens with 7 samples.

Results

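TP63 silencing was examined in TE5, an established cell line of esophageal squamous cell carcinoma (ESCC), by RNA-seq of 1 library with a short hairpin RNA (shRNA) against TP63 and 1 library with a non-targeting scramble shRNA. These are 2 of the 7 RNA-seq libraries of the series. The 2 libraries were described over 15662 well-counted genes of 56234 genes summed, where well counted means at least 100 estimated counts in 1 of the 2 libraries. Both shRNAs were delivered by lentivirus, and the label of the silenced library, shp63-ma, does not say which of the TP63 shRNA designs of the study it carries. The TE5 libraries with an shRNA against SOX2 or against CCAT1, and the scramble and TP63 shRNA libraries of KYSE140, another ESCC line, were used for comparison. All of them were grown in the same medium with serum. Each condition has 1 library, so no difference below has a replicate check and no p-value is given. In bulk RNA, fewer cells of a kind and less RNA per cell cannot be told apart.

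TP63 is a p53-family transcription factor that marks the basal layer of stratified epithelia and is required for their formation. Its ΔN forms, transcribed from an internal start site, lack the amino-terminal activation domain of the TA forms and predominate in squamous cells, where they maintain basal keratins, adhesion genes and proliferative capacity. TP63 and SOX2 lie on the same chromosome arm and are often amplified together in squamous cell carcinomas.

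The values below are estimated counts summed over each gene's transcripts and divided by a library scaling factor (TMM, trimmed mean of M-values), called normalized counts. A change is log2((shTP63 + 1)/(scramble + 1)) of normalized counts. A gene "fell" at -1 or less and "rose" at 1 or more. The 95% exact binomial interval given with a change covers counting error only. The 2 libraries held 80657923 (scramble) and 98036494 (shTP63) estimated counts. They were run on different flow cells: the scramble library in lane 3 of one, and the TP63, SOX2 and CCAT1 shRNA libraries of TE5 together in lane 1 of another. For this reason each change is also given against the mean of the SOX2 and CCAT1 shRNA libraries and called the same-lane change; those 2 libraries carry silencing of their own.

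TP63 itself (ENSG00000073282, hg19 chr3:189349178-189615065, plus strand) had a normalized count of 26644 in scramble and 6759 upon TP63 silencing. The remaining level was 25.4% of scramble, a log2 change of -1.98 (95% interval -2.01 to -1.94). The SOX2 and CCAT1 shRNA libraries held 30940 and 22764, which placed the silenced library below all 3 other TE5 libraries, with a same-lane change of -1.99. In KYSE140 the count went from 47895 to 12493, a change of -1.94. Transcripts from the internal start site (8 annotated transcripts, starting between 189507448 and 189507590) made up 98.2% of TP63 counts in scramble and 99.8% in the silenced library. Their normalized count was 26155 in scramble and 6744 upon silencing, a change of -1.96. The 6 transcripts of the upstream site (starts between 189349178 and 189349305), which encode the TA forms, held 489 in scramble and 16 upon silencing, a change of -4.89 (interval -5.70 to -4.34). Reads that both kinds of transcript share were divided by the quantifier's model, so the smaller of these values depends on that model.

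Over all well-counted genes, 679 fell (4.34%) and 958 rose (6.12%), around a median change of -0.05. By the same-lane change 3.17% of them lay at -1 or less and 5.61% at 1 or more. In KYSE140, 1.41% of the genes well counted in both lines fell and 1.43% rose. The interval lay wholly past the threshold for 479 of those that fell and 573 of those that rose. Another 430 genes lay just inside the threshold, at 0.9 to 1 in size, and 321 just past it, at 1 to 1.1. The genes that rose were mostly of low count: 16.3% of genes with 100 to 300 counts rose, 3.48% of those with 1000 to 3000 and 1.71% of those with 10000 or more. Of the 958, 497 had under 100 estimated counts in scramble and so entered only through the library where they were high, as did 93 of the 679 through scramble. Such genes had to differ, and counts that hold them are descriptions. The share that fell stayed between 3.60% and 5.12% over the 5 count ranges. Among genes with at least 1000 counts, 418 fell and 255 rose, so the balance of the 2 directions turned with the count minimum. With TPM, a measure scaled for transcript length and depth, in place of counts 428 fell and 1200 rose, and with no scaling between libraries, which moved the median of all genes from -0.05 to 0.37, the numbers were 223 and 2218. Among 13289 protein-coding genes 619 fell and 731 rose, and among 1954 long non-coding RNA (lncRNA) genes 47 fell and 176 rose.

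**Figure D1:**
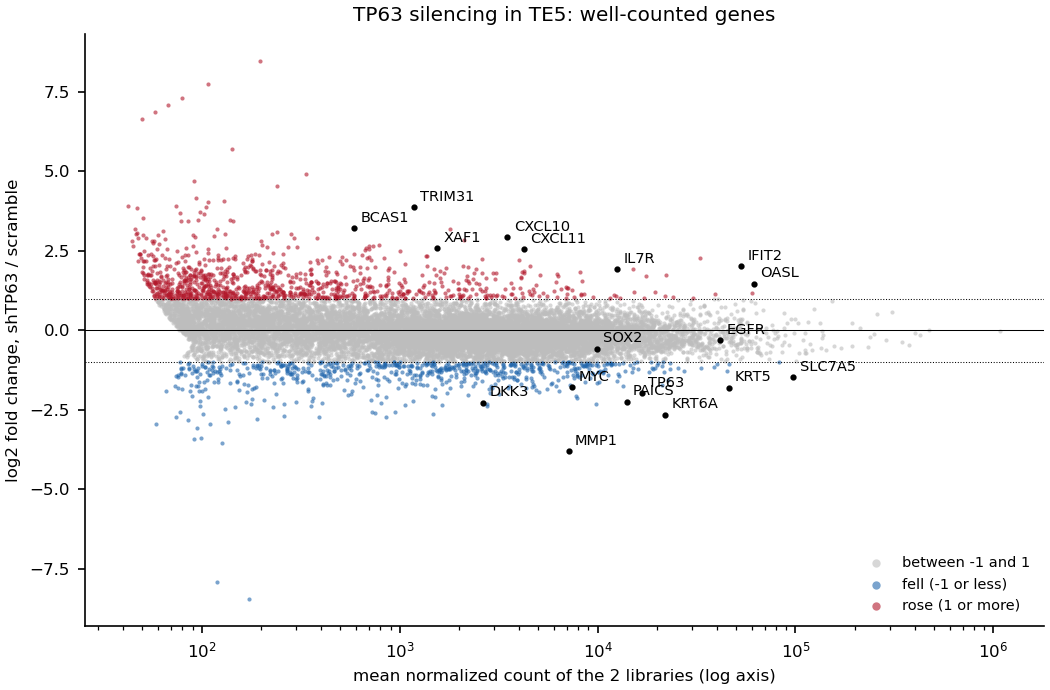
Change upon TP63 silencing in TE5 (vertical axis, log2 fold change of shTP63 over scramble) against the mean normalized count of the 2 libraries (horizontal log axis), for the 15662 well-counted genes. Blue points fell, red points rose, grey points lie between the dotted lines at -1 and 1, and labelled genes are described in the text. Red points are densest at low counts, and the 9 genes past 5 in size had at most 5 estimated counts in the lower library.

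Rankings of the largest changes left out genes that share 50% or more of their 31-base sequence words with other genes. Among the other protein-coding genes with at least 1000 counts, the largest fall was that of MMP1, interstitial collagenase. MMP1 had 13330 normalized counts in scramble, 7689 with the SOX2 shRNA, 9646 with the CCAT1 shRNA and 955 upon TP63 silencing. The change was -3.80 (interval -3.89 to -3.72), and the same-lane change was -3.18. SOST, which encodes the secreted Wnt antagonist sclerostin, went from 1289 to 212 (-2.60), and DKK3, a secreted protein of the Dickkopf family, from 4389 to 909 (-2.27). PAICS, a bifunctional enzyme of de novo purine synthesis, went from 23197 to 4919 (-2.24, interval -2.28 to -2.20). SLC29A1, the equilibrative nucleoside transporter ENT1, went from 4635 to 889 (-2.38). ALPL, tissue-nonspecific alkaline phosphatase, had 4625 and 923 (-2.32), and AKR1B10, an aldo-keto reductase, 16290 and 3281 (-2.31). PRMT6, an arginine methyltransferase that acts on histone H3, went from 2547 to 414 (-2.62). DLK2, a membrane protein of the Delta-like family, had 1243 and 209 (-2.57). MRPS33, a protein of the small mitochondrial ribosome subunit, had 1630 and 277 (-2.55). SERPINB13, a serine protease inhibitor of stratified epithelium, had 1339 and 272 (-2.29). Each of these 11 genes was also past -1 against the same-lane libraries, at -1.55 to -3.18. PAGR1, a component of histone methyltransferase complexes, had 1917 and 411 (-2.22). ANKS6 ranked among the largest falls (1491 to 223, -2.73), but most of its counts lie on a transcript that is not in the annotation, and with it the change was -0.87.

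In the same ranking of protein-coding genes with at least 1000 counts, the largest rise was that of TRIM31, a ubiquitin ligase of the tripartite-motif family. TRIM31 went from 149 in scramble to 2206 upon TP63 silencing. Its change was 3.88 (interval 3.65 to 4.14), and the other TE5 knockdown libraries held 248 and 388. BCAS1, a gene amplified in breast carcinoma, went from 114 to 1068 (3.21), and CAPN8, a calpain known from the gastrointestinal tract, from 356 to 3237 (3.18). The chemokines CXCL10 and CXCL11 and the interferon-inducible XAF1 belonged to the same group and are described with the interferon genes. TGM2, tissue transglutaminase, had 209 and 1080 (2.37), and DIO2, the deiodinase that activates thyroid hormone, 200 and 1196 (2.57). CYP4F12, a cytochrome P450 of the fatty acid hydroxylase family, went from 210 to 1368 (2.70). PLAAT2, a phospholipase and acyltransferase, went from 200 to 1272 (2.67). SLC15A3, a lysosomal transporter of peptides and histidine, had 191 and 1165 (2.60), and SLC16A6, of the monocarboxylate transporter family, 199 and 1141 (2.52). RASGRP3, an exchange factor of Ras-family GTPases, had 192 and 1211 (2.65). ACHE, acetylcholinesterase, had 301 and 1703 (2.49), while its count with the SOX2 shRNA was 932 and its same-lane change 1.35. COL11A2, a chain of fibrillar collagen, had 186 and 988 (2.40), or 1.44 with its transcripts that are not in the annotation.

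**Figure D2:**
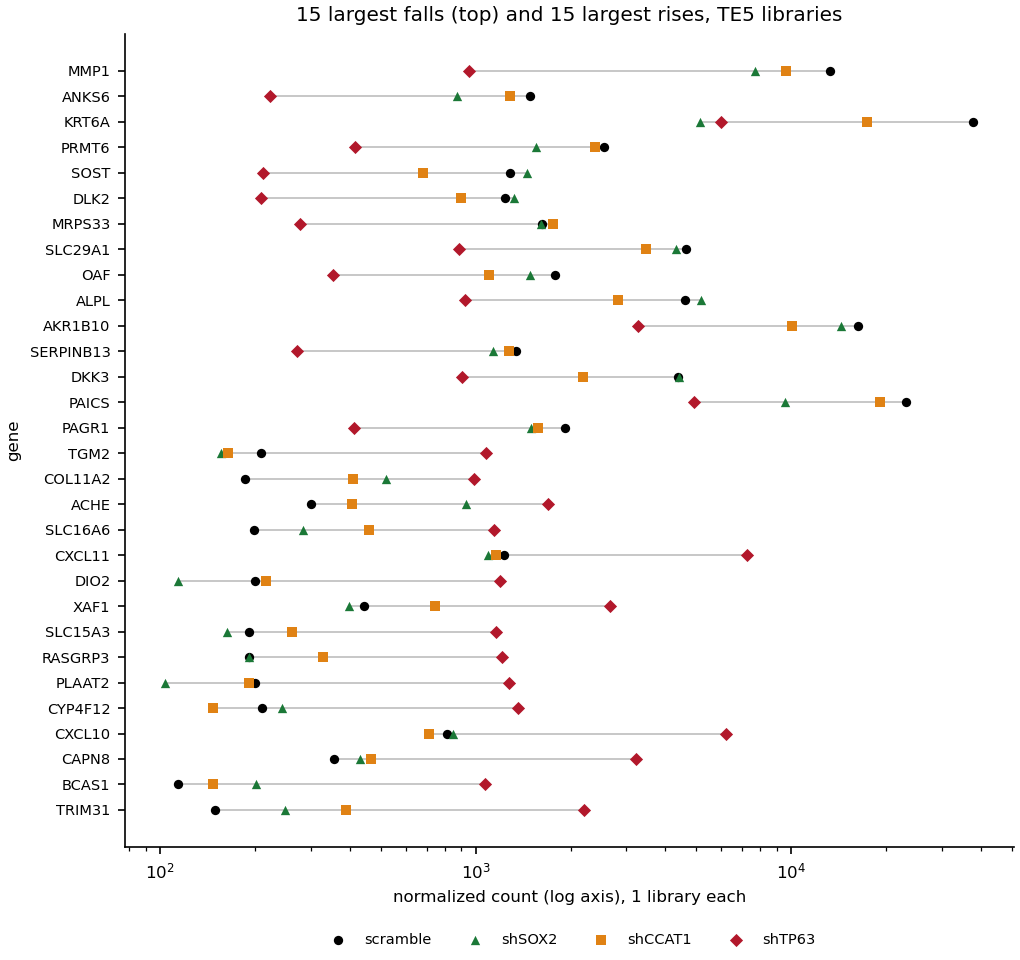
Normalized counts (horizontal log axis) of the 15 largest falls and 15 largest rises among protein-coding genes with at least 1000 counts. Genes with 50% or more of their words shared with other genes were left out. Each of the 4 TE5 libraries has 1 symbol, and grey lines show their range. The black circle is scramble, the green triangle shSOX2, the orange square shCCAT1 and the red diamond shTP63. The red diamond stands apart from the other 3 libraries except for KRT6A, where shSOX2 (5131) lies below shTP63 (6019).

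Of the squamous keratins, KRT5 and KRT6A fell and KRT17 did not. TE5 carried the squamous markers in scramble (15 of 17 well counted, summed level 4819.94 TPM) except KRT14, the usual partner of KRT5, with 29 normalized counts, and GJB6, a connexin, with 2. Of the 15 well-counted squamous markers 5 fell and 0 rose (median -0.74), beside 4.34% and 6.12% of all genes. One of the 5 is TP63 itself, the target of the shRNA, and the others are KRT5, KRT6A, S100A2 and CLCA2. Of 8 well-counted keratins of stratified epithelium 3 fell and 0 rose (median -0.32). KRT5, the basal type II keratin, had 71376 in scramble, 82974 with the SOX2 shRNA, 25675 with the CCAT1 shRNA and 20488 upon TP63 silencing. Its change was -1.80 (interval -1.82 to -1.78), and the silenced library was the lowest of 4, close to the CCAT1 shRNA library. KRT6A, a keratin of activated and hyperproliferative epithelium, had 37843 in scramble, 5131, 17474 and then 6019 upon TP63 silencing. Its change was -2.65 against scramble and -0.91 against the same-lane libraries, so the call rests on the scramble library. KRT6C fell too (150 to 20), but 51.8% of its sequence words are shared with other genes and its value is uncertain. With 26 estimated counts upon silencing, KRT6C passed the count minimum only through scramble. KRT17, a type I keratin, moved the other way without reaching the threshold, from 37145 to 71966 (0.95). S100A2, a calcium-binding protein of basal keratinocytes, went from 46025 to 20313 (-1.18), and CLCA2, a cell-surface protein induced by p53-family factors, from 1234 to 299 (-2.04).

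Among genes of the desmosome, the intercellular junction of epithelia, 0 of 11 fell and 0 rose (median -0.29), beside 4.34% and 6.12% of all genes. In a list of this size, 0 is near those shares. Its members ranged from -0.92 to just under the threshold, at 1.0 after rounding. DSG3, desmoglein-3, had 16582 and 13381 (-0.31), DSG2 55028 and 41785 (-0.40), and JUP, plakoglobin, 94832 and 111485 (0.23). Against the same-lane libraries the median of this list was 0.11, on the other side of 0. PERP, a tetraspan desmosomal protein and a classical TP63 target, had 48752 in scramble and 47416 upon silencing (-0.04). Genes of the hemidesmosome and basement membrane, which anchor basal cells, also had 0 of 23 fallen and 0 risen (median 0.09), again near those shares. Within that list ITGB4 had 68992 and 38853 (-0.83), its partner ITGA6 28282 and 15540 (-0.86), and LAMA5, a laminin chain, 71499 and 81064 (0.18). In the list of simple-epithelium keratins 3 of 7 rose and 0 fell (median 0.73), beside 6.12% and 4.34% of all genes. KRT7 was the keratin of simple epithelium that rose, with 1888 and 3899 (1.05). KRT81 (113 to 304) and KRT86 (464 to 1243), which are hair keratins, each changed by 1.42. They share 60.3% and 44.5% of their words with other genes, so the value of KRT81 is uncertain. KRT8 (70358 to 103868, 0.56) and KRT18 (30170 to 43181, 0.52) did not pass.

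Transcription factors of squamous epithelium had 5 of 25 fallen and 1 risen (median -0.29), beside 4.34% and 6.12% of all genes. Against the same-lane libraries 3 lay past -1 and 2 past 1, beside 3.17% and 5.61% of all genes. In KYSE140 1 of 24 fell, beside 1.41% of all genes. HES2, a repressor of the Hairy family, had 1189 and 359 (-1.72). ZNF750, a differentiation factor downstream of TP63, had 457 and 182 (-1.32). OVOL2 (409 to 183, -1.15), TFAP2A (4959 to 2387, -1.05) and the basal-cell zinc finger factor BNC1 (3333 to 1647, -1.02) also fell against scramble. OVOL2 was at -0.91 against the same-lane libraries, and TFAP2A at -0.84, or at -0.91 against scramble with its transcripts that are not in the annotation. The factor that rose was PRDM1, also called BLIMP1, which acts in terminal differentiation, from 419 to 1334 (1.67). SOX2 had 11923 in scramble, 8010 upon TP63 silencing and 10598 with the CCAT1 shRNA, a change of -0.57 that did not pass. Cornified envelope and differentiation genes had 1 of 19 fallen (ZNF750) and 3 risen (median 0.49), where 4.34% and 6.12% of all genes did. Sciellin (SCEL), a precursor of the cornified envelope, went from 602 to 1996 (1.73). S100A9, a subunit of calprotectin, went from 324 to 706 (1.12), and the protease gene TMPRSS11E from 121 to 246 (1.02). The median of this list was 0.63 against the same-lane libraries and -0.05 in KYSE140.

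**Figure D3:**
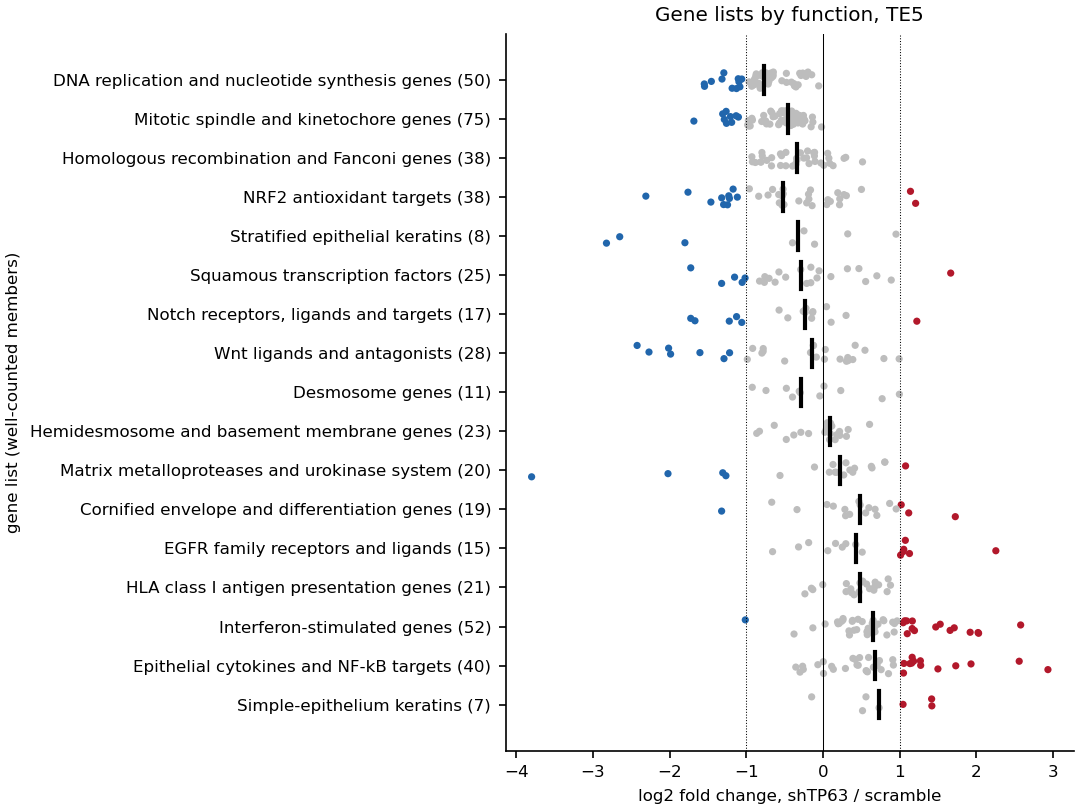
Log2 fold change of shTP63 over scramble in TE5 (horizontal axis) for the well-counted members of 17 gene lists, 1 point per gene, with the number of members in brackets. Blue points fell, red points rose and black bars mark list medians, from -0.77 for DNA replication to 0.73 for simple-epithelium keratins.

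Some genes that the study names for silencing of TP63, SOX2 or CCAT1 were also read here. EGFR, the epidermal growth factor receptor, had 46273 in scramble, 50563 with the SOX2 shRNA, 32145 with the CCAT1 shRNA and 37118 upon TP63 silencing, a change of -0.32 (interval -0.34 to -0.30). The silenced library lay between the CCAT1 shRNA library and the other TE5 libraries, and the same-lane change was -0.16. TXNRD1, cytosolic thioredoxin reductase, went from 9508 to 2806 (-1.76). With its transcripts that are not in the annotation, which carry most of its counts, it went from 39803 to 10722 (-1.89). CDK4, the G1 cyclin-dependent kinase, had 13562 and 7361 (-0.88). PAK4, a p21-activated kinase, had 3686 and 1692 (-1.12), or -0.95 with transcripts that are not in the annotation. HMGA1, a chromatin architectural protein, had 63457 and 42750 (-0.57), ETV4, a PEA3-group factor, 2662 and 1790 (-0.57), and YES1, a Src-family kinase, 27339 and 22100 (-0.31). CCAT1 was not analysed here as a gene of its own, because the annotation used places its locus within CASC19. CASC19 had 620 in scramble, 309 with the SOX2 shRNA, 228 with the CCAT1 shRNA and 229 upon TP63 silencing. Its change was -1.43 (interval -1.64 to -1.23) against scramble and -0.23 against the same-lane libraries, and all 3 knockdown libraries were below scramble.

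Genes of DNA replication and nucleotide synthesis moved down together: all 50 well-counted members were below 0, 11 fell and 0 rose (median -0.77), where 4.34% and 6.12% of all genes did. This list holds the MCM helicase, the GINS complex, the replicative polymerases and the enzymes that make deoxynucleotides. MCM7, a helicase subunit, had 62117 in scramble and 29812 upon TP63 silencing (-1.06), with 37895 and 53215 in the SOX2 and CCAT1 shRNA libraries. MCM3 had 27004 and 12745 (-1.08). The polymerase subunits POLA1 (5774 to 2641, -1.13) and POLD2 (19790 to 9258, -1.10) fell, as did CDC45 (3841 to 1566, -1.29) and GINS1 (4684 to 1605, -1.54), partners of the MCM helicase. TYMS, thymidylate synthase, had the largest fall of the list, from 33947 to 11608 (-1.55, interval -1.58 to -1.52). Its count was 5472 with the SOX2 shRNA and 25306 with the CCAT1 shRNA, so its same-lane change was -0.41. Against the same-lane libraries 3 of the 50 lay past -1, beside 3.17% of all genes, and the list median was -0.44. In KYSE140 0 of 50 fell, beside 1.41% of all genes, and the median was -0.13.

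Genes of the mitotic spindle and kinetochore were likewise all below 0, with 9 of 75 fallen and 0 risen (median -0.46), beside 4.34% and 6.12% of all genes. With the same-lane control 5 of the 75 lay past -1 (3.17% of all genes did) and the median was -0.38. In KYSE140 0 of 75 fell, beside 1.41% of all genes, with a median of -0.05. BUB1B, a spindle checkpoint kinase, had 4603 in scramble, 4009 and 4018 in the other knockdown libraries, and 1432 upon TP63 silencing. Its change was -1.68 (interval -1.76 to -1.61), and the silenced library stood apart from the other 3. CKAP2, a microtubule-associated protein, had 14376 and 5806 (-1.31), the kinesin KIF14 4615 and 1923 (-1.26), and INCENP, of the chromosomal passenger complex, 12009 and 5477 (-1.13). MYBL2, a transcription factor of cell-cycle genes, had 35337 and 15478 (-1.19). Homologous recombination and Fanconi genes had 0 of 38 past the threshold in either direction (median -0.34, with 30 below 0). Over all genes 4.34% fell and 6.12% rose. FANCI had 14815 and 11669 (-0.34), and the chromatin remodeller HELLS 7656 and 5475 (-0.48). Of G1 cyclins, CDKs and their inhibitors, 3 of 27 fell and 2 rose, beside 4.34% and 6.12% of all genes. CCND2, cyclin D2, had 12080 in scramble and 4593 upon silencing (-1.39). RB1, the retinoblastoma protein gene, had 8022 and 3476 (-1.21), and E2F8, a repressor of the E2F family, 1853 and 919 (-1.01). CDKN2B, the inhibitor p15, rose from 1469 to 3651 (1.31). CDKN1A, the inhibitor p21, had 20217 in scramble, 20496 and 18944 in the other knockdown libraries and 40514 upon TP63 silencing, a change of 1.00 (interval 0.98 to 1.03) that lies at the threshold. In KYSE140 the change of CDKN1A was 0.01. In the list of p53 response element target genes, 3 of 35 rose and 1 fell, near the shares of all genes (6.12% and 4.34%), so the list as a whole did not stand out. In KYSE140 0 of 32 passed in either direction. Besides CDKN1A, BBC3 (650 to 1428, 1.13) and PMAIP1 (7598 to 16528, 1.12), which encode the apoptosis inducers PUMA and NOXA, rose, and TP73, another p53-family gene, fell from 4019 to 1686 (-1.25).

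A motif of E2F factors, which control replication genes, was looked for in promoters as the letters TTTNGCGC on both strands. RefSeq promoter windows of 300 bases (250 before and 50 after the start, GRCh38.p14, not the hg19 build of the files) were at hand for 27305 gene symbols, and 500 of them (1.83%) held the letters. Of the well-counted replication genes with a window 14 of 43 held it (32.6%), of those that fell 4 of 10, and of mitotic genes 4 of 65. Among all well-counted genes the share was 2.86%, among those that fell 3.28% and among those that rose 1.55%. A match describes letters in a window and not a bound site. The 250 bases before the start are shown for the 2 replication genes that fell and hold the motif wholly upstream, with the motif, on either strand, in capitals.

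MCM7 (GRCh38.p14 chr7:100101398-100101647, minus strand): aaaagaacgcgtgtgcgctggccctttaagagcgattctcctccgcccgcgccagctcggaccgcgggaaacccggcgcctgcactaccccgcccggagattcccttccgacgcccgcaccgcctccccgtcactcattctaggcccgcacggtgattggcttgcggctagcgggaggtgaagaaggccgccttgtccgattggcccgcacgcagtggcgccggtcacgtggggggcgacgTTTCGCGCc

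POLA1 (GRCh38.p14 chrX:24693668-24693917, plus strand): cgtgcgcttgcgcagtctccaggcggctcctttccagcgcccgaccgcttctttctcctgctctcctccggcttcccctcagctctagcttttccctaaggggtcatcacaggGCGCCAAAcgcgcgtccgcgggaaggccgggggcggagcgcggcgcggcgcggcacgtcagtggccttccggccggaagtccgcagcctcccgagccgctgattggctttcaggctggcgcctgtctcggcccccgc

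The match began 9 bases before the start in MCM7 and 137 bases before it in POLA1.

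Interferon-stimulated genes were the list with the most members risen: 15 of 52 rose and 1 fell (median 0.65, with 49 above 0), where 6.12% of all genes rose. Interferon-stimulated genes encode antiviral effectors and are switched on through an interferon-stimulated response element (ISRE) in their promoters. IFIT2, which blocks translation of viral RNA, had 21022 in scramble, 19057 with the SOX2 shRNA, 16891 with the CCAT1 shRNA and 85554 upon TP63 silencing. Its change was 2.02 (interval 2.00 to 2.05), and the silenced library stood above the other 3, which lay close together. IFIT3, of the same family, had 37152 and 83432 (1.17). OASL, of the oligoadenylate synthase family, had 32746, 24349, 26263 and then 90879 upon silencing (1.47). RSAD2, the antiviral protein viperin, went from 8196 to 26892 (1.71), and SAMD9L, an antiviral factor, from 6324 to 23964 (1.92). GBP1, a guanylate-binding protein, went from 819 to 3353 (2.03), and GBP3, of the same family, from 2568 to 5759 (1.16). XAF1, an apoptosis-related gene, had 444, 397, 743 and 2663 (2.58). ISG20, an exonuclease, went from 1970 to 6225 (1.66). UBE2L6, the conjugating enzyme of ISG15, went from 11824 to 27063 (1.19), and PARP14, a mono-ADP-ribosyltransferase, from 14057 to 29992 (1.09). The member that fell was DTX3L, the ubiquitin ligase that pairs with PARP9, from 27032 to 13391 (-1.01, interval -1.04 to -0.99). MX1 had 32385 and 48256 (0.58) and IRF1 4318 and 4929 (0.19), neither past the threshold. Against the same-lane libraries 23 of 52 lay past 1, beside 5.61% of all genes, and the list median was 0.85. In KYSE140 1 of 40 well-counted members rose (1.43% of all genes rose there) and the median was 0.33, at counts that for IFIT2 (627 and 880) and OASL (508 and 715) were far below those of TE5.

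The ISRE was searched as TTTC, any 2 bases and TTTC on both strands of the same promoter windows. Of 41 well-counted interferon-stimulated genes with a window, 25 held it (61.0%), beside 996 of 27305 symbols (3.65%) and 2.80% of well-counted genes. Of the members that rose 6 of 10 held it, and so did the window of DTX3L, which fell. Among all genes that rose the share was 7.92%, and among those that fell 2.25%. IFIT2 and OASL were not among the windows matched. The 250 bases before the start are shown for 4 interferon-stimulated genes and the chemokine gene CXCL10, all of which rose, with the motif, on either strand, in capitals.

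IFIT3 (GRCh38.p14 chr10:89327747-89327996, plus strand): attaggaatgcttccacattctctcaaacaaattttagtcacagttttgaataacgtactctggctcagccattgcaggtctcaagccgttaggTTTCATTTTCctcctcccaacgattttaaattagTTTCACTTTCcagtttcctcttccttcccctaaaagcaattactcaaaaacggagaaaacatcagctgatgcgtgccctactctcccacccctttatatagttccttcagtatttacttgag

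PARP14 (GRCh38.p14 chr3:122680589-122680838, plus strand): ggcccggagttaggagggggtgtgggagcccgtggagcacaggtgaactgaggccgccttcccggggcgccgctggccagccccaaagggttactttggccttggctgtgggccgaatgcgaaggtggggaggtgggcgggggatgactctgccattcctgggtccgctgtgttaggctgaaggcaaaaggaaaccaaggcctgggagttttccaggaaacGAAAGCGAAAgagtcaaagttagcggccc

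ISG20 (GRCh38.p14 chr15:88638766-88639015, plus strand): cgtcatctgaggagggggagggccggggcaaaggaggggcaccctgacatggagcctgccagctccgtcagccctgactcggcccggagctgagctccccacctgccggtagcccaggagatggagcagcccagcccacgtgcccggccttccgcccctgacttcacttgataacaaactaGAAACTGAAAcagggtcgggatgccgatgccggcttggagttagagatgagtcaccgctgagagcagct

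GBP1 (GRCh38.p14 chr1:89065209-89065458, minus strand): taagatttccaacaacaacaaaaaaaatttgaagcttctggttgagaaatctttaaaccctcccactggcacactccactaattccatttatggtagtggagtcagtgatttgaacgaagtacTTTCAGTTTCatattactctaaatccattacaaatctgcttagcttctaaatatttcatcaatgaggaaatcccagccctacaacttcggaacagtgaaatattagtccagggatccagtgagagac

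CXCL10 (GRCh38.p14 chr4:76023498-76023747, minus strand): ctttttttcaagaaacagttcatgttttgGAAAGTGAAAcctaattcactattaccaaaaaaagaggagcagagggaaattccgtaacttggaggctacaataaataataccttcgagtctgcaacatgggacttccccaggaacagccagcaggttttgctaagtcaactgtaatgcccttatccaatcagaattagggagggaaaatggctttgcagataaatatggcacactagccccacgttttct

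IFIT3 holds 2 matches, which begin 156 and 122 bases before the start, and the others hold 1 each, from 29 bases before the start in PARP14 to 221 in CXCL10.

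Of epithelial cytokines and NF-kB targets, 13 of 40 rose and 0 fell (median 0.68), beside 6.12% and 4.34% of all genes. Of the 13, 1 passed the count minimum only through the silenced library. Set against the same-lane libraries, 9 lay past 1, beside 5.61% of all genes (median 0.51). In KYSE140 3 of 24 rose and 1 fell, beside 1.43% and 1.41% of all genes, with a median of 0.04. CXCL10, a chemokine for T cells that interferon induces, had 810 in scramble, 846 with the SOX2 shRNA, 714 with the CCAT1 shRNA and 6208 upon TP63 silencing (2.94, interval 2.83 to 3.05). CXCL11, which binds the same receptor, had 1228, 1099, 1158 and 7253 (2.56). For both, the other 3 TE5 libraries differed little from one another and the silenced library stood far above them. TNFSF15, a ligand of the tumor necrosis factor family, had 1012 and 3865 (1.93). Interleukin-6 (IL6) had 919 and 2089 (1.18), and the chemokine CCL20 535 and 1202 (1.17), with a same-lane change of 0.51. C3, the central complement component, had 4344 and 10526 (1.28). BIRC3, an inhibitor of apoptosis and NF-kB target, had 5359 and 11774 (1.14), and NFKB2, a subunit of the noncanonical NF-kB pathway, 4918 and 10236 (1.06). IL7R, the interleukin-7 receptor, belongs to none of the lists and rose from 5219 to 19906 (1.93), with 7633 and 5447 in the other knockdown libraries. Of HLA class I antigen presentation genes 0 of 21 passed the threshold, while 4.34% of all genes fell and 6.12% rose. Of the 21, 17 lay above 0 (median 0.48), among them B2M, beta-2-microglobulin, with 94925 and 152257 (0.68).

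Of NRF2 antioxidant targets, 10 of 38 fell and 2 rose (median -0.52), beside 4.34% and 6.12% of all genes. In KYSE140 2 of 34 fell and 0 rose, beside 1.41% and 1.43% of all genes (median -0.24). NRF2 is the transcription factor that induces detoxifying and glutathione enzymes. Besides TXNRD1 and AKR1B10, glutathione reductase (GSR) went from 5513 to 2245 (-1.30), the aldehyde dehydrogenase ALDH3A1 from 20846 to 9250 (-1.17) and the drug efflux pump ABCC1 from 15229 to 6095 (-1.32). The steroid-reducing aldo-keto reductases AKR1C1 (7780 to 3587), AKR1C2 (6460 to 2772) and AKR1C3 (2452 to 1045) changed by -1.12 to -1.23; they are close paralogs with up to 43.6% of words shared. NR0B1, an orphan nuclear receptor, went from 555 to 234 (-1.24). SLC7A5, the large neutral amino acid transporter LAT1 and also an ATF4 target, had 143117 in scramble, 173090, 88296 and then 51945 upon silencing (-1.46). The members that rose were the efflux pump ABCC3 (4350 to 9610, 1.14) and CYP4F3 (909 to 2104, 1.21). Only 4 of the 10 remained past -1 against the same-lane libraries. ALDH3A1 was 11286 and 8943 in the SOX2 and CCAT1 shRNA libraries, against 9250 upon TP63 silencing. The summed TPM of the list went up, from 12341.94 to 14083.96, in contrast to the median. The antioxidant response element, searched as TGACNNNGC, was held by 9 of 26 windows of this list (34.6%), by 2 of 6 of the members that fell and by 13.6% of all windows. Among all genes that fell 15.6% held it, and among those that rose 13.8%.

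In the list of EGFR family receptors and ligands, 6 of 15 rose and 0 fell (median 0.43), beside 6.12% and 4.34% of all genes. Those that rose were 4 ligands, the receptor ERBB4 and the inhibitor ERRFI1. Only 2 lay past 1 against the same-lane libraries, beside 5.61% of all genes. EREG and BTC were at 0.97, AREG at 0.93 and ERRFI1 at 0.90. Epiregulin (EREG) had 2325 in scramble and 5090 upon TP63 silencing (1.13), with 2475 and 2724 in the other knockdown libraries. Betacellulin (BTC) had 965 and 1994 (1.05), and EGF 256 and 532 (1.05). Amphiregulin (AREG) had 705 and 1425 (1.01), with 97.8% of its words shared with another gene and an uncertain value. ERRFI1, a feedback inhibitor of EGFR, had 3578 and 7544 (1.08). ERBB4, a receptor of the family, had 20 and 98 normalized counts (2.26, interval 1.60 to 3.09) and passed the count minimum only through the silenced library. Feedback and target genes of the MAPK pathway had 2 of 24 fallen and 5 risen, beside 4.34% and 6.12% of all genes. With the same-lane libraries as control 3 were lower and 2 higher (3.17% and 5.61% of all genes), and in KYSE140 0 passed. The phosphatases DUSP1 (4265 to 12515, 1.55), DUSP4 (870 to 1808, 1.05) and DUSP5 (1167 to 3304, 1.50) rose, although DUSP5 had 4956 with the SOX2 shRNA and a same-lane change of 0.08. JUN, a subunit of AP-1, had 6234 and 12800 (1.04), and ETV1, of the PEA3 group, 278 and 618 (1.15). FOSL1, another AP-1 subunit, fell from 7599 to 3602 (-1.08). MYC, a growth-promoting transcription factor, had 11557 in scramble, 14793 and 8876 in the other knockdown libraries and 3370 upon TP63 silencing (-1.78, interval -1.83 to -1.73), and its same-lane change was -1.81.

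Among Notch genes, which act in the choice between basal and suprabasal fates, 5 of 17 fell and 1 rose, beside 4.34% and 6.12% of all genes. With the same-lane control 3 lay past -1, beside 3.17% of all genes. DLL1 was at -0.60 and NRARP at -0.86. In KYSE140 0 of 16 passed. JAG2 had 15145 in scramble, 18848 and 9349 in the other knockdown libraries and 4759 upon TP63 silencing (-1.67). The ligands JAG1 (15955 to 7655, -1.06) and DLL1 (1996 to 913, -1.13) fell as well, and so did NRARP, a Notch target and feedback inhibitor (3601 to 1543, -1.22), and HES2. DLL4, which passed the count minimum only through the silenced library, had 33 and 79, with an interval of 0.66 to 1.87 around 1.23. The receptors themselves are not among the members that passed. Of Wnt ligands, antagonists and targets, 7 of 28 fell and 0 rose (median -0.14), beside 4.34% and 6.12% of all genes. The ligands were WNT7B (10769 to 4628, -1.22) and WNT10B (345 to 140, -1.29). The transcription factors were TCF7 (379 to 95, -1.99) and LEF1 (250 to 46, -2.42), which act with beta-catenin. LEF1 had 59 estimated counts upon silencing and passed the count minimum only through scramble. DKK3, NKD2 (907 to 224, -2.01) and ZNRF3 (955 to 313, -1.60) are negative regulators, and ZNRF3 was -0.87 with transcripts that are not in the annotation. Against the same-lane libraries 10 of 28 lay past -1 and 1 past 1, beside 3.17% and 5.61% of all genes. In KYSE140 1 of 24 fell and 1 rose, beside 1.41% and 1.43% of all genes (median -0.10).

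Of matrix metalloproteases and the urokinase system, 4 of 20 fell and 1 rose, beside 4.34% and 6.12% of all genes. Most members did not go down: 14 lay above 0 and 6 below, with a median of 0.22. In KYSE140 3 of 18 fell and 1 rose, beside 1.41% and 1.43% of all genes (median 0.08). Besides MMP1, stromelysin-2 (MMP10) went from 658 to 273 (-1.27), ADAMTS1, an aggrecan-cleaving protease, from 883 to 216 (-2.02), and PLAT, tissue plasminogen activator, from 2241 to 905 (-1.31). PLAUR, the urokinase receptor, rose from 2122 to 4485 (1.08), with a same-lane change of 0.73. Of cadherins, vimentin and factors of epithelial-mesenchymal transition, 3 of 36 fell and 3 rose, near the 4.34% and 6.12% of all genes, so the list as a whole did not stand out. CDH11, a mesenchymal cadherin, had 901 in scramble, 386 and 347 in the other knockdown libraries and 310 upon TP63 silencing. Its change of -1.54 against scramble was -0.24 against the same-lane libraries. TWIST2 (584 to 241, -1.27) and tenascin-C (TNC, 262 to 79, -1.71) also fell. Fibronectin (FN1) rose from 1235 to 3018 (1.29), CCN1, a matricellular YAP target, from 11286 to 22945 (1.02), and SPARC, another matricellular protein that passed the count minimum only through the silenced library, from 27 to 124 (2.16). The collagen-binding and related integrins ITGA10 (57 to 298, 2.38) and ITGA11 (49 to 168, 1.77) passed the count minimum only through the silenced library. No other gene of their list of 13 passed the threshold, while 4.34% of all genes fell and 6.12% rose.

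Metabolic genes other than those of nucleotide synthesis are described here list by list. Of 26 sterol synthesis genes 1 fell and 0 rose, beside 4.34% and 6.12% of all genes, so the list did not stand out. The member that fell was EBP, a sterol isomerase (6851 to 2416, -1.50). Of 21 fatty acid genes 2 fell and 1 rose, beside the same 4.34% and 6.12%. The desaturase FADS1 (31028 to 15207, -1.03) and its paralog FADS3 (7884 to 2873, -1.46) fell, and the acyl-CoA synthetase ACSL5 rose (1039 to 2348, 1.18). Of 34 glycolysis and hypoxia-response genes 0 fell and 1 rose, below the shares of all genes. The member that rose was SLC2A3, the glucose transporter GLUT3. SLC2A3 had 1820 in scramble, 688 and 755 in the other knockdown libraries and 6700 upon TP63 silencing (1.88, same-lane 3.21). Retinoid and alcohol oxidation genes had 2 of 25 fallen and 5 risen, beside 4.34% and 6.12% of all genes. Those that fell were ALDH3A1 and the cytochrome P450 CYP2S1 (9815 to 3543, -1.47). ALDH1A1, a retinaldehyde dehydrogenase, had 1086, 302, 1009 and 3237 in scramble, SOX2, CCAT1 and TP63 shRNA libraries (1.57). The retinol transporter STRA6 (519 to 1243, 1.26), the retinol dehydrogenase SDR16C5 (596 to 1379, 1.21) and the alcohol dehydrogenase ADH1C (59 to 144, 1.27) rose too. ADH1C had 57 estimated counts in scramble and passed the count minimum only through the silenced library. ALDH3B1 counted 433 and 1155 (1.41), but with transcripts that are not in the annotation its change was 0.91. ATF4 and unfolded protein response genes had 3 of 37 fallen and 3 risen, near the shares of all genes. The amino acid genes PSAT1 (9386 to 3217, -1.54), SHMT2 (21291 to 8617, -1.30) and SLC7A5 fell, and the stress factors ATF3 (2368 to 7870, 1.73) and DDIT3 (1323 to 2829, 1.10) and the chaperone DNAJB9 (1325 to 2707, 1.03) rose. CANX, the chaperone calnexin, had 144601 and 130363 (-0.15). Mitochondrially encoded genes had 0 of 13 past the threshold, near the shares of all genes, but 12 lay below 0 (median -0.31). Their median was -0.28 against the same-lane libraries and 0.20 in KYSE140. MT-CO1 had 1084546 and 1078137 (-0.01). Epithelial kallikreins and clade B serpins had 1 of 13 fallen, SERPINB13, and 2 risen, beside 4.34% and 6.12% of all genes. Those that rose were KLK14 (42 to 92, 1.11, interval 0.61 to 1.69) and SERPINB7 (122 to 255, 1.06). KLK14 passed the count minimum only through the silenced library.

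Ranked here are lncRNA genes with at least 1000 counts and under 50% of words shared with other genes. Among them DANCR, known for keeping epidermal progenitors undifferentiated, went from 5750 to 2222 (-1.37, interval -1.44 to -1.31). The largest fall was that of VPS9D1-AS1, from 1712 to 645 (-1.41), followed by DANCR, SNHG4 (1297 to 524, -1.31), TYMSOS (1041 to 429, -1.28) and LINP1 (3209 to 1414, -1.18). VPS9D1-AS1 and TYMSOS are antisense to or overlap VPS9D1 and TYMS, and the counting of strand is not stated in the sources used here, so their reads cannot be told apart from those of the partner. The largest rises were those of DPY19L2P2 (252 to 1010, 2.00), ENSG00000230392 (232 to 927, 1.99), ENSG00000260328 (280 to 987, 1.81), LINC02972 (318 to 1004, 1.66) and ENSG00000267288 (328 to 984, 1.58). All 5 also exceeded 1 against the same-lane libraries, at 1.27 to 2.01. The share of counts on lncRNA transcripts was 1.40% in scramble, 1.74% upon TP63 silencing, 1.42% with the SOX2 shRNA and 1.85% with the CCAT1 shRNA. Transcripts with a retained intron took 3.13% in scramble and 3.70%, 3.88% and 3.84% in the 3 knockdown libraries. The part of these shares in the rise of low-count genes was not tested.

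Most markers of other cell types were not well counted, with exceptions in each list, and their part in the changes above was not tested. Of 9 fibroblast markers 3 were well counted. COL3A1 (75 to 470) and COL1A2 (14 to 158) were so only through the silenced library, while DCN and LUM stayed at 17 counts or fewer. COL1A1 had 2268 and 3967. Of 5 endothelial markers 2 were well counted. CDH5, vascular endothelial cadherin, rose from 283 to 1379 (723 and 363 in the other knockdown libraries), and VWF had 336 and 378. KDR, TIE1 and TEK stayed at 9 or fewer. Of 10 immune markers CD68 (5771 and 7911, with 85.0% of its words shared with other genes) was the only one well counted, with PTPRC, the pan-leukocyte marker, at 12 and 20. Of 17 glandular markers 6 were well counted. Of these 1 fell, CDX2, an intestinal factor, from 1056 to 505 (-1.06), and 0 rose. GATA4 had 2991 and 1857, GATA6 2171 and 1689, MUC5AC 828 and 480, FOXA2 384 and 280, and ANXA10 229 and 246. The summed level of the list went from 51.73 to 39.09 TPM, and those of the fibroblast, immune and endothelial lists from 16.33 to 27.74, 69.99 to 118.52 and 2.50 to 9.36 TPM.

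Set against the mean of the SOX2 and CCAT1 shRNA libraries of the same lane, 496 genes were lower in the silenced library (3.17%) and 878 higher (5.61%). Both comparisons share the TP63 shRNA library. Of the genes that fell against scramble 391 (57.6%) were also past -1 here, and of those that rose 606 (63.3%) were also past 1. TP63, MMP1, MYC, KRT5, JAG2, BUB1B, TRIM31, CXCL10, IFIT2 and OASL passed in both. For KRT5 this rests on the SOX2 shRNA library (82974), since the CCAT1 shRNA library (25675) lay close to the silenced one (20488). Of the 174 named genes that passed against scramble, all kept their direction and 123 stayed past the threshold. Some of the 174 were named because they passed in this comparison too, and others after their values were seen. These counts are therefore descriptions. Among those that did not were the keratin KRT6A, the replication genes MCM3 (-0.64), MCM7 (-0.61), POLA1 (-0.88), POLD2 (-0.54), CDC45 (-0.89) and TYMS (-0.41), and the mitotic genes INCENP (-0.89) and MYBL2 (-0.66). TXNRD1 (-0.86), GSR (-0.53), ALDH3A1 (-0.13), AKR1C1 (-0.62), AKR1C2 (-0.67) and AKR1C3 (-0.56) of the NRF2 list also did not, nor did RB1 (-0.82), FADS1 (-0.81), WNT7B (-0.92), TWIST2 (-0.96), CDH11 and CASC19. On the side of the rises these were JUN (0.73), ETV1 (0.52), DUSP5 (0.08), CDKN2B (0.85), PMAIP1 (0.91), DDIT3 (0.92), DNAJB9 (0.35), BIRC3 (0.84), NFKB2 (0.89), GBP3 (0.86), ABCC3 (0.91) and TMPRSS11E (0.77).

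The KYSE140 comparison shares no library with that of TE5, and its scramble and TP63 shRNA libraries also ran in different lanes. Fewer genes passed the threshold there: 189 of 13428 genes well counted in both lines fell (1.41%) and 192 rose (1.43%). Of these, 87 fell in TE5 as well, 14.9% of the 582 TE5 genes measured there and 46.0% of the KYSE140 genes. Another 57 rose in both lines, 11.8% of the 484 TE5 genes and 29.7% of the KYSE140 genes. In opposite directions, 5 fell in TE5 and rose in KYSE140, and 15 did the reverse. A narrower set needed at least 1000 counts in each line, under 50% of words shared with other genes and a same-lane change past the threshold. Of these genes, 34 fell and 5 rose in both lines. Next to TP63, DKK3 had 9382 and 2191 in KYSE140 (-2.10), CETN2, a centrin that also serves nucleotide excision repair, 5068 and 1265 in TE5 (0.25 of scramble) and 5342 and 1883 in KYSE140 (-1.50). ACO1, the cytosolic aconitase and iron-regulatory protein, had 2768 and 706 in TE5 (-1.97) and 7177 and 2153 in KYSE140 (-1.74). MRPS33 (-1.57 in KYSE140), OAF (1788 to 354 in TE5, -2.33; -1.47 in KYSE140) and CYP2S1 (-1.50 in KYSE140) followed. HDDC2 (2587 to 834 in TE5, -1.63; -1.39 in KYSE140), FAM89A (2291 to 839, -1.45; -1.53) and COPS9, a component of the COP9 signalosome (1938 to 604, -1.68; -1.34), completed the 10 largest shared falls. The 5 shared rises were SLC2A3 (30081 to 104743 in KYSE140, 1.80), IL7R (300 to 1034, 1.78), SCEL (1780 to 4476, 1.33), CCDC71L (1028 to 2421, 1.23) and SMPD1, acid sphingomyelinase (557 to 1283, 1.20). KRT5 changed by -0.70 and KRT14 went from 79501 to 24614 in KYSE140, which unlike TE5 has abundant KRT14. KRT17 went from 528017 to 338224 (-0.64) there, against 0.95 in TE5. MMP1 could not be compared, with 18 and 5 normalized counts.

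**Figure D4:**
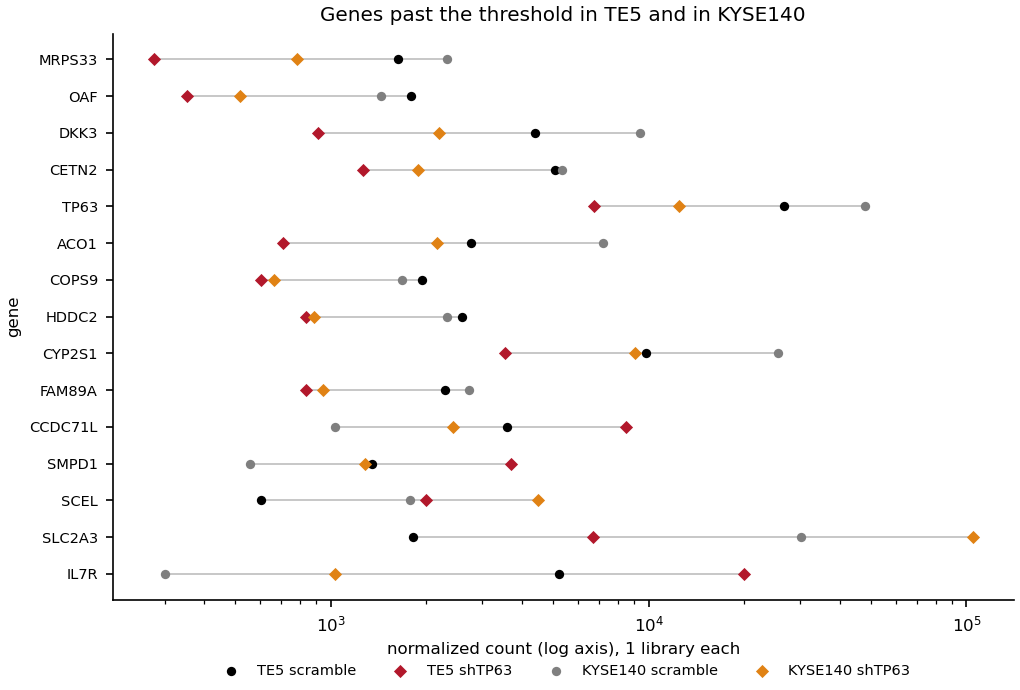
Normalized counts (horizontal log axis) of 15 genes past the threshold in TE5 and in KYSE140, in 1 library each. They are the 10 largest of the 34 falls and the 5 rises that also passed against the same-lane libraries. All had at least 1000 counts in each line and under 50% of words shared with other genes. The black circle is TE5 scramble, the red diamond TE5 shTP63, the grey circle KYSE140 scramble and the orange diamond KYSE140 shTP63. Grey lines show the range of the 4. Diamonds lie left of the circle of the same line for the 10 falls from MRPS33 to FAM89A and right of it for the 5 rises.

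**Figure D5:**
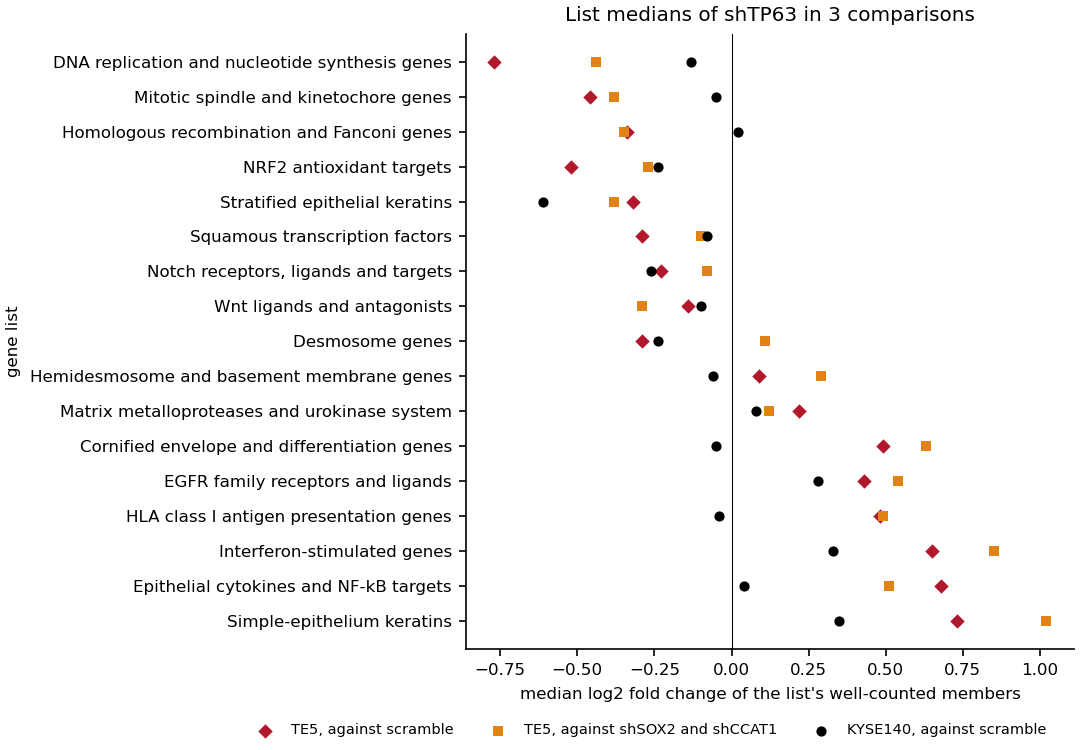
Median log2 fold change (horizontal axis) of the well-counted members of 17 gene lists for the TP63 shRNA library in TE5 against scramble (red diamonds), in TE5 against the SOX2 and CCAT1 shRNA libraries (orange squares) and in KYSE140 against scramble (black circles). Replication genes lie at -0.77, -0.44 and -0.13, interferon-stimulated genes at 0.65, 0.85 and 0.33, and desmosome genes at -0.29, 0.11 and -0.24.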

How the data were processed

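RNA-seq of 2 TE5 libraries (scramble and TP63 shRNA) was analysed, with 2 further TE5 libraries and 2 KYSE140 libraries for comparison. Per the labels and the study's methods, the authors pseudoaligned reads to an hg19 Ensembl transcriptome with Kallisto and deposited, per transcript, an estimated count (not scaled between libraries) and a TPM value (scaled for length and depth). Strandedness is not given in the sources used here. Of 196354 transcripts, 182863 were in GENCODE 44 on hg19 and were summed to 56234 genes; these held 93.45% to 93.69% of the counts. A gene whose transcripts are partly outside the annotation is summed in part, and 7011 such transcripts that stand between transcripts of 1 gene were added in an alternative.

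Library factors came from TMM (edgeR 4.0.16, R 4.3.3) over all 7 libraries. Log2 changes used a pseudocount of 1. Genes needed 100 estimated counts in 1 of the 2 libraries, and 1000 for the lists of largest changes. Intervals are 95% Clopper-Pearson and cover counting error only, since replicates are absent. Sequence shared between genes was measured on 1 in 16 of the 31-base words of the reference transcripts. A gene at 50% or more is given as uncertain. Such genes were left out of the rankings of largest changes, protein-coding and lncRNA, and of the genes past the threshold in both lines. The script was tested on simulated counts.

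Genes were named by rule: TP63 and the genes the paper names for these libraries; the 15 largest protein-coding falls and rises; up to 5 fallen and 5 risen members of each list by normalized count (2 members where none passed); the 5 largest lncRNA changes each way; and up to 10 genes each way past the threshold in 3 comparisons. Other members were named after their values were seen: CASC19, KRT8, KRT17, KRT18, DSG3, PERP, ITGA6, CDC45, GINS1, GSR, AKR1C1, AKR1C2, AKR1C3, NR0B1, RSAD2, SAMD9L, GBP1, GBP3, ISG20, MX1, IRF1, IL6, CCL20, TNFSF15, ERBB4, WNT10B and LEF1. The motifs and windows shown were also chosen after the values. The comparison and the gene lists were chosen with earlier results of these data known.

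Alternatives were DESeq2 1.42.0 size factors, upper-quartile and no scaling, other count minimums, pseudocount, threshold and control, TPM (pseudocount 0.1), gene classes, and centring within 20 expression bins. Scripts ran in Python 3.11.15 (pandas 2.3.3, numpy 2.4.6; scipy 1.17.1 for intervals; figures by matplotlib 3.10.9).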

Additional observations from a re-analysis of the deposited data

How the results depend on the processing

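Of 679 falls and 958 rises, the number past the threshold moved by over 1.5 times with no scaling between libraries (223 falls and 2218 rises), with a minimum of 10 counts (1370 and 3608), 1000 counts (418 and 255) or 1 count (4029 and 6818), with a threshold of 0.58 (2235 and 2212) and, for falls, with TPM (428). A lower minimum or threshold admits more genes by construction. Leaving out the library factors (1.289 for shTP63 and 0.962 for scramble) moves all genes up by nearly the same amount. The median of all genes was then 0.37. For TPM, which shifts that median to 0.11, the cause was not tested. The TP63 log2 fold change stayed below -1 throughout and left its counting interval at -1.92 with upper-quartile scaling, -1.56 with no scaling, -1.94 with TPM and -1.85 after centring within expression bins.

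Relative to the median of all genes, the list medians kept their side of 0 under 6 of these settings (DESeq2 size factors, upper-quartile and no scaling, TPM, centring and the same-lane control), except desmosome genes (0.14 with the same-lane control, -0.08 after centring and -0.24 or -0.25 otherwise) and sterol synthesis genes (0.05 after centring and 0.21 with the same-lane control, -0.02 or -0.04 otherwise). Leaving out a replicate was not possible with 1 library per condition. No paired analysis was possible because the labels give no replicate numbers. Counting error alone leaves 479 of the falls and 573 of the rises wholly past the threshold, and the spread between cultures and lanes is not known.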

Other observations

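The lists in this part were written after the values had been seen and describe them only. Enzymes of de novo purine synthesis lay below 0 in 12 of 13 members, with 3 fallen and 0 risen (median -0.65), beside 4.34% and 6.12% of all genes. Against the same-lane libraries 2 lay past -1, beside 3.17% of all genes, and the median was -0.40. IMPDH1, which commits inosine monophosphate to guanine nucleotides, went from 5503 in scramble to 1576 upon TP63 silencing (-1.80), and its paralog IMPDH2 from 12381 to 5882 (-1.07). PAICS was described above. PRPS1, which makes the ribose precursor, had 9372 and 9377 (0.00). In KYSE140 IMPDH1 changed by -0.74 and IMPDH2 by -0.22. Of 15 well-counted serine and one-carbon genes, 3 fell (PSAT1, SHMT2 and TYMS) and 0 rose, beside the same 4.34% and 6.12%. With the same-lane control 2 lay past -1, TYMS was at -0.41 and the list median was -0.26. MTHFD2, the mitochondrial folate dehydrogenase, had 10468 and 10618 (0.02).

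Of the interferon ligands looked at, IFNB1, IFNE, IFNL1, IFNL2 and IFNL3 had more normalized counts in the TP63 shRNA library than in the other 3 TE5 libraries, and IFNG and IFNK had 0 in each. IFNL1, a type III interferon, had 143 normalized counts in scramble, 116 with the SOX2 shRNA, 90 with the CCAT1 shRNA and 664 upon TP63 silencing (2.20, interval 1.95 to 2.48). IFNB1, interferon beta, had 35, 29, 14 and 159 (2.14, interval 1.64 to 2.74). IFNE, an epithelial type I interferon, had 40, 111, 73 and 144, nearer to the SOX2 shRNA library. The adaptor MYD88 had 540, 783, 795 and 2222 (2.04), the RNA sensor TLR3 2511, 2264, 2973 and 5123 (1.03) and ZBP1, a sensor of Z-form nucleic acids, 37, 16, 11 and 126 (1.74). The interferon receptor chains IFNAR1 (2280 and 2878, 0.34) and IFNLR1 (1200 and 1221, 0.02) and the adaptor MAVS (4842 and 3601, -0.43) did not pass. In all, 6 of 21 well-counted members rose and 0 fell (median 0.19), where 6.12% and 4.34% of all genes did. IFNB1, IFNE and ZBP1 had under 100 estimated counts in scramble and entered only through the silenced library, so the count is a description. In KYSE140 IFNB1 had 4 and 22 normalized counts and IFNL1 4 and 16.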
